A study of Mus musculus with 6 samples.

Results

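The genes described here make, take up, break down or sense prostaglandins, and were chosen by symbol: Pla2g4a, Ptgs2, Ptges, Slco2a1, Hpgd, Ptger1, Ptger2 and Ptger4. All 8 symbols were found, 1 row each, among 38720 rows of gene expression values from the neck region of the mouse gastric corpus. The tissue had been cut by laser capture microdissection from frozen, unfixed stomach and its RNA sequenced. There were 3 libraries from wild-type mice (CLDN18+/+) and 3 from knockout mice (CLDN18-/-), all on the strain background written B6:129S5 and with no treatment named. The sample labels give an age of 7 weeks for both genotypes, whereas the series' design text gives it in days, so the age is uncertain. Claudin 18, the product of Cldn18, is a tight junction protein of the gastric epithelium. Nothing in the labels says whether the 3 libraries of a genotype came from separate animals or how many animals were used, so the p-values measure only the spread between these libraries, which may be technical.

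Prostaglandins are lipid signals made on demand from arachidonic acid. Cytosolic phospholipase A2 (Pla2g4a) releases arachidonic acid from membranes, a cyclooxygenase (the constitutive Ptgs1 or the inducible Ptgs2) turns it into prostaglandin H2, and a terminal synthase such as Ptges makes prostaglandin E2 (PGE2). PGE2 is removed by uptake through the transporter Slco2a1 and oxidation by hydroxyprostaglandin dehydrogenase (Hpgd), and acts on the receptors EP1 to EP4, encoded by Ptger1 to Ptger4. In the stomach PGE2 is known for restraining acid secretion, stimulating mucus and bicarbonate and protecting the mucosa.

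Values are normalized counts, that is, reads per gene divided by a size factor of the library, and the depth was 37640881 to 52798211 reads in genes with a symbol. A single gene, Gm26924, took 45.4% of these reads in wild-type replicate 1 and 38.6 to 41.1% in the other libraries. Fewer reads were thus left for all other genes. A gene was called at an adjusted p under 0.05 in limma, fitted on log2(normalized count + 1) over all genes, and folds and differences below are on that scale. Libraries differed in more than genotype. Mitochondrial genes took 3.29 to 4.29% of reads in wild-type and 1.25 to 1.56% in knockout libraries. Markers of squamous epithelium, a lining found in the forestomach, summed to 6041 and 2544 in wild-type libraries 2 and 3, and to 614 to 869 in the other 4. Processed pseudogenes took 1.08 and 0.531% of reads in the same pair of wild-type libraries and 0.104 to 0.144% elsewhere. All member results are therefore also given without these 2 libraries where that changes them. All 6 parietal cell markers fell, from a summed 397604 to 516825 in wild-type to 2758 to 9283 in knockout libraries, and all 5 chief cell markers tested fell too. In bulk tissue, fewer cells of a type and less RNA per cell cannot be told apart. The targeted gene, Cldn18, was at 30498, 21210 and 23241 in the wild-type libraries and at 13035, 16798 and 15818 in the knockout libraries. Its reads fell by 0.71 ± 0.20 (log2 ± SE, limma adjusted p = 0.0134), a call lost without knockout replicate 1 (adjusted p = 0.0883), and the sources used here do not say which part of the gene was deleted.

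Prostaglandin genes did not move in 1 direction. Ptger4, Ptges and Pla2g4a were higher in the knockout, by 4.23-fold, 2.46-fold and 1.50-fold. Hpgd and Slco2a1, the breakdown enzyme and the uptake transporter, were lower, Hpgd at 40.8% of its wild-type mean. Ptgs2, Ptger1 and Ptger2 were not called. Ptgs2 and Ptger2 were the least abundant, with 31 to 74 reads in any library, and are too low to judge a change of moderate size. All 8 genes passed the filter of at least 10 normalized counts in at least 3 libraries, 3 were called higher, 2 lower and 3 not called. Of all 17409 genes tested, 44.7% were called, 23.2% higher and 21.4% lower, so a call by itself is common in this comparison. The median log2 difference of the members was -0.11 beside -0.02 for all genes. The values of the 2 genotypes did not overlap for 5 of the members, where 55.2% of all tested genes did not.

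**Figure D1:**
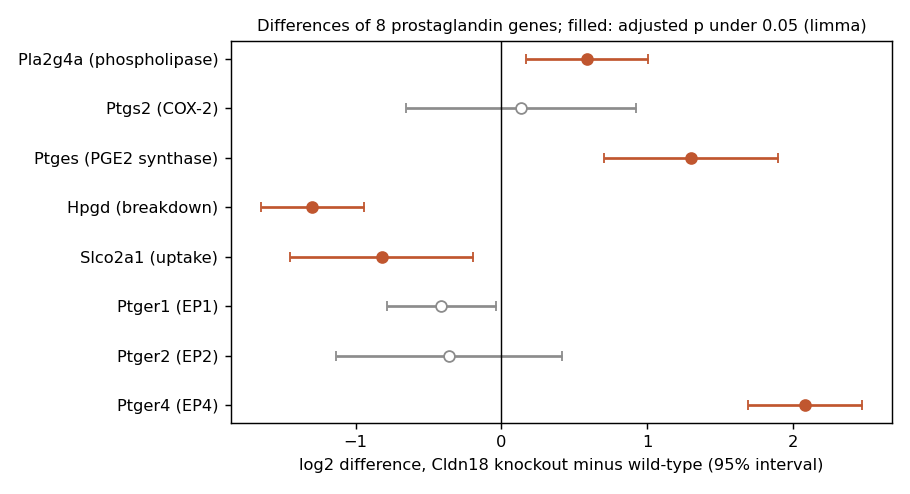
Log2 difference between Cldn18 knockout and wild-type libraries on the horizontal axis for each of the 8 genes, with its 95% interval from limma (3 libraries a genotype). Filled points are called: Ptger4, Ptges and Pla2g4a lie right of 0, Hpgd and Slco2a1 left of it, and the intervals of Ptgs2 and Ptger2 span 0.

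The 3 genes with the largest differences are shown by the 250 bases before their start sites, taken from RefSeq (build GRCm38.p6). RefSeq promoter entries were found for 7 of the 8 genes, and the 3 windows shown hold no annotated exon. Each is written 5′ to 3′ on the gene's own strand, with capitals marking a GC box (GGGCGG on either strand) or a CCAAT box (CCAAT, either strand).
Ptger4, chr15:5244188-5244437, minus strand: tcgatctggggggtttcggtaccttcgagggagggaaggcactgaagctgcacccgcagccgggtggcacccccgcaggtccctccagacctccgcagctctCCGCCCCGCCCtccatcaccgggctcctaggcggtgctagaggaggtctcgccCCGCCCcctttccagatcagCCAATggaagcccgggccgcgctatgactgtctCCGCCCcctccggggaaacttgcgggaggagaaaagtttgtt
Ptges, chr2:30903298-30903547, minus strand: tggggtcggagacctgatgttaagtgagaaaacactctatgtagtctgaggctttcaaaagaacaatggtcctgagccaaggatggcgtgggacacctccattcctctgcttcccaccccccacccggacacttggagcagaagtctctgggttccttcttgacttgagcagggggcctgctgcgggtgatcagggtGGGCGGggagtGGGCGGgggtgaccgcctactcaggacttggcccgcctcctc
Hpgd, chr8:56294302-56294551, plus strand: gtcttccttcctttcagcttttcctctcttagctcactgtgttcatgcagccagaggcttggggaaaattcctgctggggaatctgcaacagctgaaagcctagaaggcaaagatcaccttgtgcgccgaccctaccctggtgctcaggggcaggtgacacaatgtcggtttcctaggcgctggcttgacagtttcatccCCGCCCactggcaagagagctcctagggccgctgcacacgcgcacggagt

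The Ptger4 window held 4 GC boxes, the first pair sharing 1 base, and a CCAAT box 75 to 71 bases before the start, in a sequence of 66.8% G and C. The Ptges window held 2 GC boxes and 59.6% G and C, and the Hpgd window 1 GC box and 56.8%. The Ptges window lies inside the annotated span of the gene, 30889471 to 30929863 on the minus strand. The RefSeq start used for Ptges is therefore not its outermost annotated start. Over 32851 promoter windows of the same length the median was 52.4%, a GC box was present in 32.7% and a CCAAT box in 33.8%. A search of both strands for the cAMP response element TGACGTCA (in 1.55% of all windows), the AP-1 site TGANTCA (6.75%), TATAAA (12.4%), the E-box CACGTG (6.02%) and the NF-kB motif (3.90%) found no match in these 3 windows. The matches describe letters in these windows and say nothing of binding. A GC box was present before the gene that fell as well as before the genes that rose.

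RNA of the substrate-releasing enzyme rose. Pla2g4a (ENSMUSG00000056220.14, chromosome 1, 149829618 to 149961290, minus strand, mm10) encodes the calcium-dependent phospholipase that frees arachidonic acid. It was at 1917, 1234 and 1732 normalized counts in wild-type replicates 1, 2 and 3 and at 2123, 2892 and 2260 in knockout replicates 1, 2 and 3. Every knockout library was above every wild-type library, but wild-type replicate 1 and knockout replicate 1 were close, and the spread within a genotype was wide. The difference was 0.59 ± 0.19 on the log2 scale (limma adjusted p = 0.0272), a 1.50-fold increase with a 95% interval of 1.12 to 2.01. The call is not firm. Without wild-type libraries 2 and 3 the difference was 0.33 (adjusted p = 0.220), the authors' deposited table gives an adjusted p of 0.0596, and leaving out any of 4 libraries also ended it, wild-type replicate 2 (p = 0.0722), wild-type replicate 3 (p = 0.0518), knockout replicate 2 (p = 0.114) or knockout replicate 3 (p = 0.0546), all adjusted.

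Neither cyclooxygenase was called. Ptgs2 (ENSMUSG00000032487.8, chromosome 1, 150100031 to 150108227, plus strand), the inducible enzyme, was at 47.7, 38.3 and 61.2 normalized counts in the wild-type libraries and at 55.7, 49.5 and 53.8 in the knockout libraries. The genotypes overlapped fully, the knockout values lying inside the wild-type range. The log2 difference was 0.13 ± 0.35 (limma adjusted p = 0.788), and the interval, 0.636-fold to 1.89-fold, leaves room for a moderate change either way. These values stand on 31 to 67 reads a library, for which counting error alone is 12.2 to 18.0%, and only 24.2% of tested genes had a lower mean. Ptgs1, the constitutive enzyme and not one of the 8, was at 450, 367 and 318 in the wild-type libraries and at 351, 251 and 374 in the knockout libraries. The genotypes overlapped here too, with a log2 difference of -0.22 ± 0.22 (limma adjusted p = 0.442). Per kilobase of exon, which allows levels of different genes to be set side by side, Ptgs1 stood at 97.4 ± 17.3 (SD, n = 3) in wild-type and 83.8 ± 16.8 in knockout libraries, and Ptgs2 at 10.7 ± 2.51 and 11.6 ± 0.70, so every library held more Ptgs1 than Ptgs2. Ptgs1 is also a marker of tuft cells. The summed tuft cell markers, a list that includes Ptgs1 itself, were 3419 to 4336 in wild-type and 6059 to 8391 in knockout libraries. Of the 10 tuft cell markers 3 were called higher, none lower and 7 not called, with a median log2 difference of only 0.11. The authors' deposited table calls 1 of them higher.

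RNA of the PGE2 synthase of the inducible route rose. Ptges (ENSMUSG00000050737.13, chromosome 2, 30889471 to 30929863, minus strand), microsomal prostaglandin E synthase, was at 127, 81.5 and 122 normalized counts in the wild-type libraries and at 269, 216 and 331 in the knockout libraries. The lowest knockout library was well above the highest wild-type library. The log2 difference was 1.30 ± 0.27 (limma adjusted p = 0.00278), a 2.46-fold increase with an interval of 1.63 to 3.72. Although low, Ptges had 66 to 126 reads in wild-type and 285 to 344 in knockout libraries, enough to separate the genotypes. Its level per kilobase of exon went from 28.1 ± 6.39 to 69.2 ± 14.5 (SD, n = 3), and its call held under every alternative tried.

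RNA of the uptake transporter fell, with 1 knockout library apart from the others. Slco2a1 (ENSMUSG00000032548.14, chromosome 9, 102988712 to 103096002, plus strand), the transporter that brings prostaglandins into cells for breakdown, was at 2092, 1411 and 1491 normalized counts in the wild-type libraries and at 892, 606 and 1472 in the knockout libraries. Knockout replicate 3 lay within the wild-type range and above wild-type replicate 2, so the genotypes overlapped, and the coefficient of variation was 44.5% in the knockout. The log2 difference was -0.82 ± 0.28 (limma adjusted p = 0.0362). The authors' deposited table gives an adjusted p of 0.160 and edgeR 0.0669, and the call was also lost without wild-type replicate 1 (p = 0.0965) or 3 (p = 0.0768), or knockout replicate 1 (p = 0.0987) or 2 (p = 0.140), all adjusted. Slco2a1 is known in endothelium, and 9 of 10 endothelial markers fell, their sum being 9688 to 15710 in wild-type and 4178, 4419 and 5677 in knockout replicates 1 to 3. Kdr, the main endothelial VEGF receptor, fell by 1.71 ± 0.20, and Pecam1 by 1.38 ± 0.21 on the log2 scale. Surface pit cell markers, a list led by secreted mucosal proteins, summed to 567796, 327032 and 551433 in knockout replicates 1 to 3 and to 770910 to 1342740 in wild-type libraries. Of the 7 pit cell markers 1 rose, 3 fell and 3 were not called, and the sum is carried by the most abundant of them, led by Gkn1 and Gkn2, which fell. Their part in the Slco2a1 difference was not tested.

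RNA of the breakdown enzyme fell. Hpgd (ENSMUSG00000031613.9, chromosome 8, 56294585 to 56321043, plus strand) encodes the dehydrogenase that starts the inactivation of prostaglandins. It was at 4932, 3850 and 3944 normalized counts in the wild-type libraries and at 1589, 2040.5 and 1557 in the knockout libraries. The lowest wild-type library was far above the highest knockout library. The log2 difference was -1.30 ± 0.16 (limma adjusted p = 0.000113), a 2.46-fold decrease with an interval of 1.92 to 3.13. Per kilobase of exon it was the most abundant of the 8 genes in every library, at 2521 ± 356 in wild-type and 1027 ± 161 in knockout libraries (SD, n = 3). Its call held under every alternative tried. The Hpgd decrease and the Ptges increase were both 1.30 in size on the log2 scale.

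**Figure D2:**
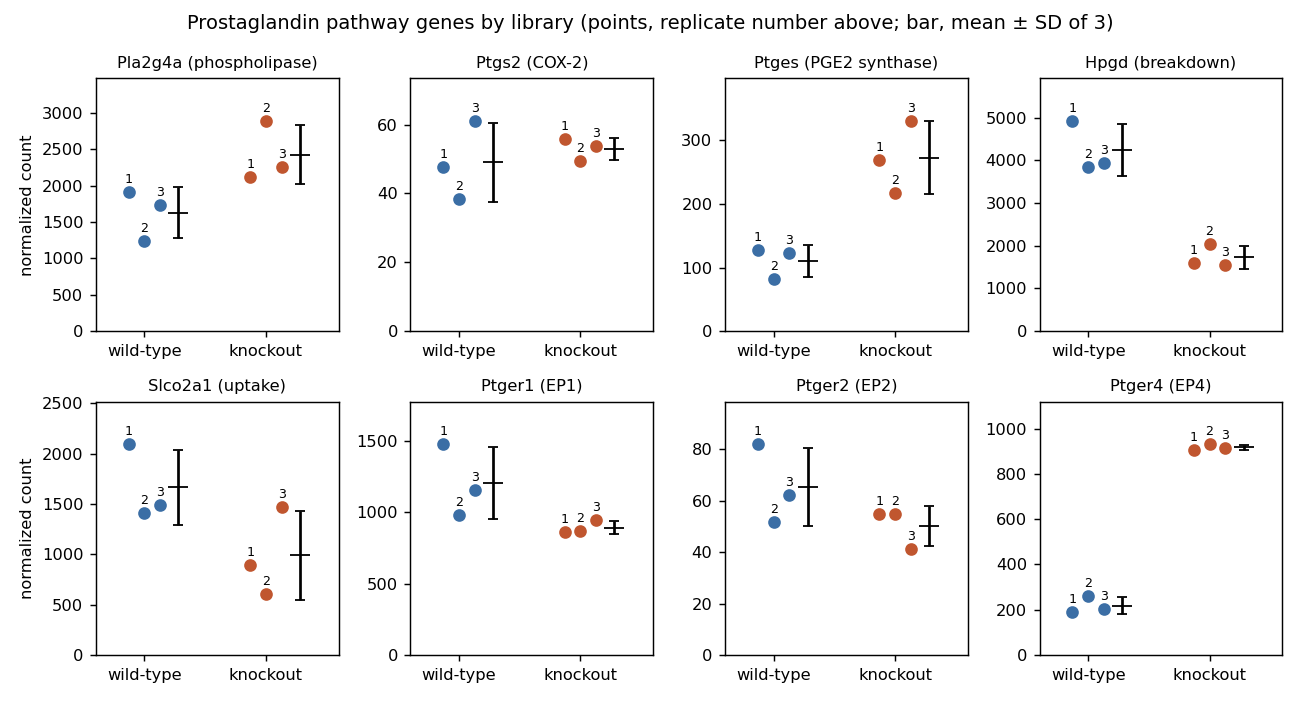
Normalized counts (vertical axes, each from 0) of the 8 genes in every library, with wild-type in blue, knockout in orange, the replicate number above each point and the mean ± SD of 3 libraries as a bar. Ptger4, Ptges and Hpgd separate widely by genotype, knockout replicate 3 of Slco2a1 lies among the wild-type libraries, and Ptgs2 and Ptger2 overlap at under 100 normalized counts.

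Of the receptors, RNA of the cAMP-raising EP4 rose. Ptger4 (ENSMUSG00000039942.15, chromosome 15, 5206661 to 5244187, minus strand) was at 189, 262 and 205 normalized counts in the wild-type libraries and at 908, 932 and 915 in the knockout libraries. The genotypes were far apart, and the knockout libraries nearly equal, with a coefficient of variation of 1.34%. The log2 difference was 2.08 ± 0.18 (limma adjusted p = 1.09e-05), a 4.23-fold increase with an interval of 3.22 to 5.56, from 154 to 212 reads in wild-type and 952 to 1261 in knockout libraries. It held under every alternative tried. Ptger4 was also the only member higher in wild-type replicate 2 than in replicate 1, at 1.39 times its value, where the other 7 stood at 0.632 to 0.802 times. A pseudogene on the opposite strand, Gm15937, shares 1015 exon bases with Ptger4 but was at 0 to 4.86 normalized counts.

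EP2, the other receptor that raises cAMP, was too low to judge. Ptger2 (ENSMUSG00000037759.6, chromosome 14, 44988195 to 45003820, plus strand) was at 82.0, 51.9 and 62.1 normalized counts in the wild-type libraries and at 54.8, 54.7 and 41.3 in the knockout libraries. The genotypes overlapped through wild-type replicate 2. The log2 difference was -0.36 ± 0.35 (limma adjusted p = 0.438), with an interval of 0.456-fold to 1.33-fold, on 42 to 74 reads a library and a counting error of 11.6 to 15.4%. The direction turned with quantile normalization (0.20), so none is given for this gene.

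EP1, the calcium-mobilizing receptor, could not be read cleanly. Ptger1 (ENSMUSG00000019464.6, chromosome 8, 83666678 to 83672753, plus strand) was at 1475, 979 and 1152 normalized counts in the wild-type libraries and at 863, 865 and 947 in the knockout libraries. Knockout values lay below all wild-type values, but narrowly below wild-type replicate 2. The log2 difference of -0.41 ± 0.17 did not pass the threshold (limma adjusted p = 0.0711), and passed it without wild-type libraries 2 and 3 (-0.73, adjusted p = 0.00844) and without wild-type replicate 2 alone (-0.55, adjusted p = 0.0182). Whether the counting used strand is not stated, and the Ptger1 level is uncertain for that reason.

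The other prostanoid receptors held the largest decreases of the pathway's receptors. Ptger3, encoding the cAMP-lowering EP3 that parietal cells are known to use, was at 284, 298 and 173 normalized counts in the wild-type libraries and at 8.50, 11.1 and 11.5 in the knockout libraries, a log2 difference of -4.44 ± 0.37 (limma adjusted p = 9.82e-06). Ptgfr, the prostaglandin F receptor, was at 427, 264 and 329 in the wild-type libraries and at 11.3, 4.43 and 7.69 in the knockout libraries, a difference of -5.33 ± 0.41 (limma adjusted p = 5.60e-06). Both stood at 4.43 to 11.5 in the knockout libraries, in which Ptger4 was high, and the parietal cell markers given above fell beside them. Their part in the result was not tested. Of 4 other receptors tested, these 2 fell and Ptgir and Tbxa2r, the prostacyclin and thromboxane receptors, were not called. Ptgdr, a prostaglandin D receptor, was at 0 to 5.77 normalized counts and below the filter.

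In wild-type libraries the order of receptor levels per kilobase of exon (SD, n = 3) was Ptger1 at 220 ± 46.1, Ptgfr at 50.2 ± 12.1, Ptger3 at 44.2 ± 12.0, Ptger4 at 32.9 ± 5.79, Tbxa2r at 22.4 ± 8.26, Ptger2 at 12.6 ± 2.95 and Ptgir at 7.30 ± 1.94. Ptgfr, Ptger3, Ptger4 and Tbxa2r form a run in which each overlaps its neighbour, and so do not differ beyond their spread one step at a time. Ptger1 stood above them in every library, with the same caution on its level. In knockout libraries the order was Ptger1 at 163 ± 8.73, Ptger4 at 138 ± 1.85, Tbxa2r at 13.2 ± 1.69, Ptger2 at 9.68 ± 1.49, Ptgir at 5.62 ± 1.03, Ptger3 at 1.82 ± 0.29 and Ptgfr at 1.15 ± 0.51. In every knockout library Ptger4 stood below Ptger1 and above the rest, while Ptger3 and Ptgfr overlapped each other. The place of Ptger4 among the overlapping receptors of the wild-type libraries is not settled.

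**Figure D3:**
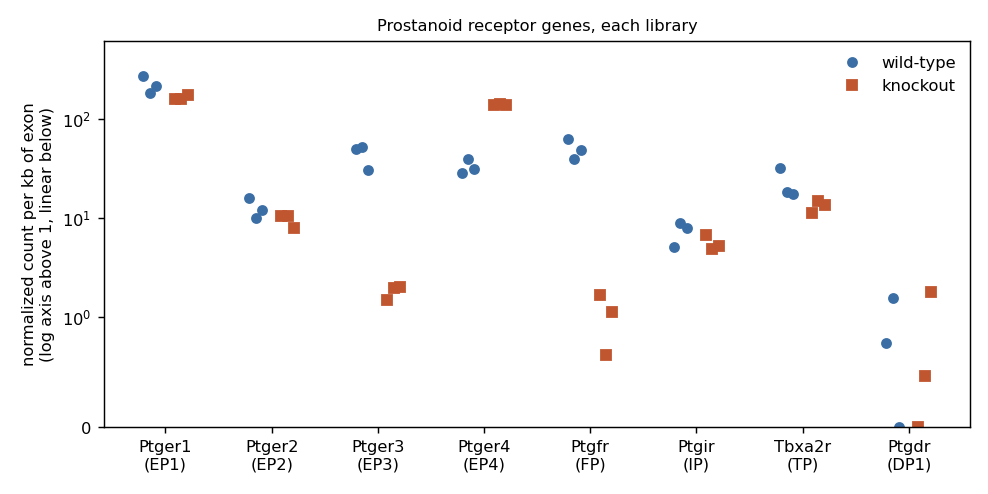
Normalized count per kilobase of exon (vertical axis, logarithmic above 1 and linear below) of the prostanoid receptor genes in each wild-type (blue circles) and knockout (orange squares) library. Ptger4 rises to near Ptger1 in the knockout, Ptger3 and Ptgfr drop to 2.03 or less, and Ptger2 and Ptgir stay low in both genotypes.

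The rest of the pathway was mixed as well. Of 9 other prostanoid synthesis genes tested, 1 rose, 3 fell and 5 were not called (44.4% called), with a median log2 difference of -0.22. Ptges3, a cytosolic PGE2 synthase that also acts as a chaperone partner, rose from 1619, 1626 and 1440 normalized counts to 3889, 3550 and 3984 (log2 1.29 ± 0.13, limma adjusted p = 3.05e-05). The third PGE2 synthase, Ptges2, was not called (-0.35 ± 0.15, limma adjusted p = 0.0844). Tbxas1, thromboxane synthase, fell from 231, 122 and 236 to 75.6, 73.1 and 79.8 (-1.30 ± 0.31, limma adjusted p = 0.00603), and Fam213b, a prostaglandin F synthase, by 1.43 ± 0.34 (adjusted p = 0.00615). Both lost the call with quantile normalization (adjusted p = 0.0714 and 0.0801). Ptgds, the lipocalin-type prostaglandin D synthase, fell (limma adjusted p = 0.00692) on very few reads, 10, 32 and 28 in the wild-type libraries and at 1, 5 and 0 in the knockout libraries.

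Of 6 other breakdown and export genes tested, 2 rose and 2 fell. Abcc4, an exporter that carries prostaglandins out of cells, rose from 818, 633 and 759 to 1292, 1390.4 and 1565 normalized counts (log2 0.94 ± 0.15, limma adjusted p = 0.000691). Cbr3, a carbonyl reductase, rose by 0.76 ± 0.20 (adjusted p = 0.0113), but not without wild-type libraries 2 and 3 (0.35, adjusted p = 0.234) nor without wild-type replicate 3 (adjusted p = 0.0557) or knockout replicate 3 (0.0550). Ptgr2 and Zadh2, reductases that act on the keto product of Hpgd, fell by 1.09 ± 0.14 (adjusted p = 0.000171) and 0.53 ± 0.14 (adjusted p = 0.0107) in limma. Zadh2 has an adjusted p of 0.0835 in the authors' deposited table. Cbr1 and Ptgr1 were not called.

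Among 20 other phospholipases A2 and genes of arachidonate handling, 8 rose, 2 fell and 10 were not called, with a median log2 difference of 0.43. The largest change was in Pla2g1b, a secreted digestive phospholipase, from 304384, 248971 and 174582 normalized counts to 213, 338 and 221 (-9.87 ± 0.23, limma adjusted p = 9.14e-09), beside the fall of the chief cell markers, whose part was not tested. Pla2g12b rose from 184, 102 and 108 to 476, 535 and 1056 (2.34 ± 0.33, adjusted p = 0.000271 in limma). Pla2g4e and Pla2g4f, cytosolic relatives of Pla2g4a, were called higher and lower at 4.94 to 129 and 0.739 to 49.4 normalized counts. Neither call held without wild-type libraries 2 and 3 (adjusted p = 0.114 and 0.226) or without wild-type replicate 2 alone (0.0551 and 0.0612), and Pla2g4e also lost its call without knockout replicate 1 (0.108) or 2 (0.123) and Pla2g4f without wild-type replicate 3 (0.0825). The others that rose were Anxa1, whose product annexin A1 restrains phospholipase A2, Pla2g4c, Pla2g10 and the arachidonate-activating or arachidonate-esterifying enzymes Acsl3, Acsl4 and Lpcat3. The Pla2g10 call was lost under 9 alternatives, among them leaving out either of those libraries or knockout replicate 1 or 3.

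**Figure D4:**
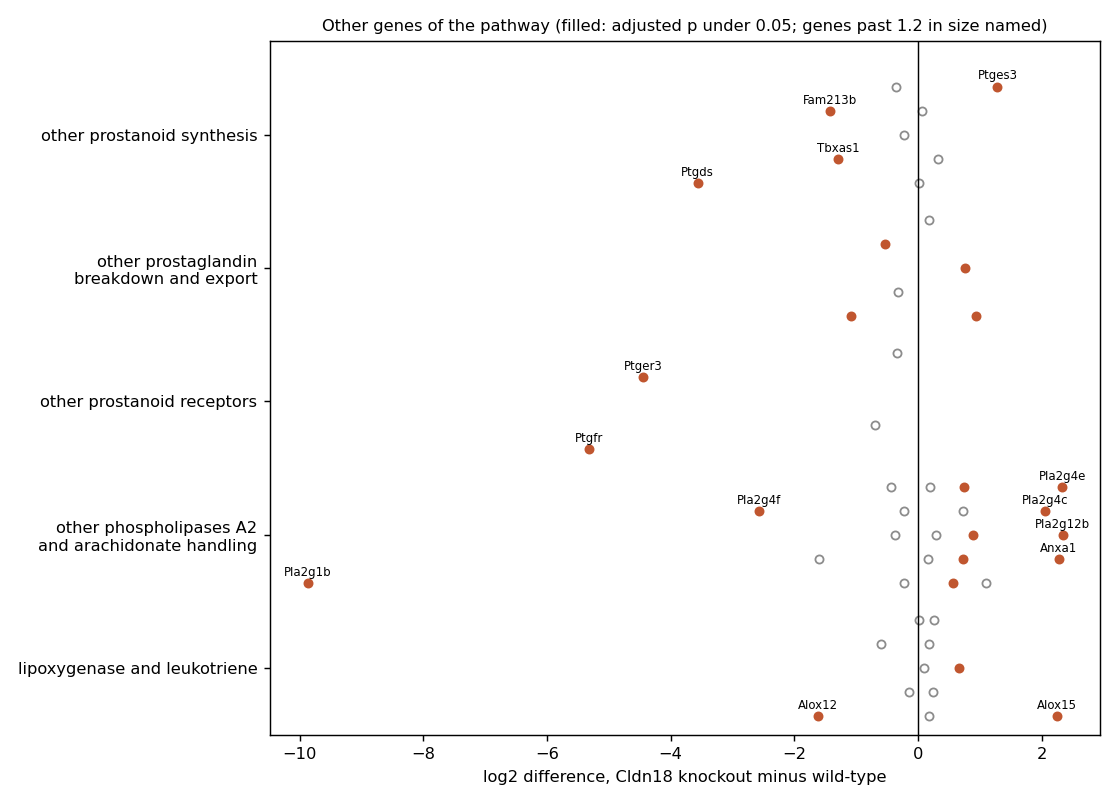
Log2 difference (horizontal axis, knockout minus wild-type) of the other pathway genes tested, 1 point a gene, grouped by list, with filled points called in limma. Points lie on both sides of 0 in each list except the receptors, where Ptger3 and Ptgfr lie farthest left.

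Markers of other cell types in the tissue were mixed. Macrophage and monocyte markers summed to 2313 to 3574 in wild-type and 4470 to 8636 in knockout libraries, with 4 of 8 tested higher and 1 lower. Both the authors' deposited table and the fit without wild-type replicate 3 call 2 of these higher and 1 lower. Fibroblast marker sums overlapped, at 24937 to 41113 in wild-type and 28920.4 to 50309 in knockout libraries, with 3 of 8 higher and 1 lower. For fibroblast markers the authors' deposited table calls 2 higher and 0 lower. Of 9 mast cell markers tested, 5 rose and 1 fell, while their sums overlapped at 1729 to 2605 in wild-type and 1602 to 2587 in knockout libraries. Among neutrophil markers 1 could be tested and was called higher, 5 were below the filter, and Ly6g was at 0 in every library. Neutrophil marker sums overlapped, at 46.5 to 53.4 in wild-type and 42.1 to 69.9 in knockout libraries. The part of these cells in the differences of Ptges, Ptger4, Pla2g4a and Hpgd was not tested.

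The genes most like each member over the 6 libraries were found among 10741 protein-coding genes by the root mean square difference of centred log2 profiles. Nearest to Ptger4 were Mybl2 (0.0702), Pir (0.0950) and Mthfd1l (0.0976), and to Ptges Gsto1 (0.0833), Arl14 (0.0980) and Tirap (0.105). Nearest to Hpgd were Hint2 (0.0529), Ulk1 (0.0717) and Tmem38b (0.0774), and to Pla2g4a Pcnt (0.0837), Prom1 (0.0857) and Yae1d1 (0.0889). Slco2a1 had more distant neighbours in Gsta2 (0.119), Wnt4 (0.127) and St3gal1 (0.143), each with its lowest value in knockout replicate 2, as for Slco2a1 itself. For Ptger1 they were Itfg1, Zfp672 and Iqgap2 (0.0596 to 0.0633), for Ptger2 Tceal8, Dnase2a and Poli (0.0800 to 0.0879) and for Ptgs2 Zcchc7 (0.0317) and Zgpat (0.0840). These are likenesses over 6 libraries of 2 genotypes, in which many genes share a profile.

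**Figure D5:**
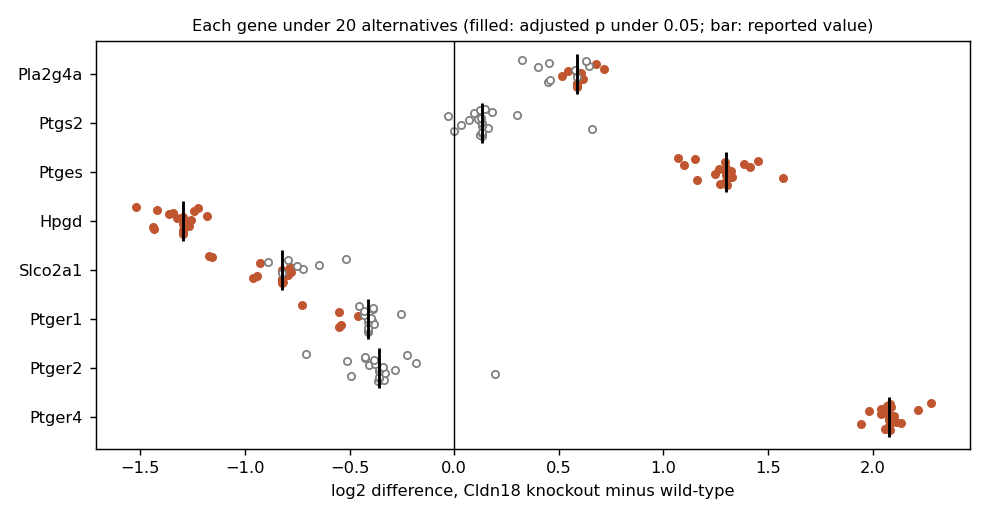
Log2 difference (horizontal axis) of each of the 8 genes under 20 alternative settings, with filled points called and the bar at the reported value. Ptger4, Ptges and Hpgd stay called on 1 side of 0 throughout, Pla2g4a, Slco2a1 and Ptger1 mix filled and open points, and Ptgs2 and Ptger2 are open throughout.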

How the data were processed

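Per the submitters' processing notes, STAR, featureCounts, DESeq and the mm10 genome were used. Roles, versions, annotation and strand setting were not given in the sources used here. The authors deposited normalized counts (a size-scaled signal, never below 0) and a table of their own comparison with a fold (a ratio), p-values and adjusted p, used only as an alternative. In each library all values (100%, within 0.05 reads) were whole multiples of 1 number, 0.739 to 1.23, which gave back the reads. After leaving out 27 rows with a date in place of a symbol, limma 3.58.1 (R 4.3.3) was run two-sided on log2(normalized count + 1) with a mean trend, over 17409 genes with at least 10 in at least 3 libraries and Benjamini-Hochberg adjustment. A log2 difference on this scale understates that of low genes. The procedure was also run on simulated data. Far fewer genes changed there than were called here, so that run cannot show how calls fare with changes this widespread. Exon lengths and mm10 coordinates came from GENCODE vM21, which matched 91.9% of symbols. Same-group libraries differed by more than sampling noise, so none was counted as a duplicate.

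Members and gene lists were chosen with earlier results of these data known, so lists are described by counts and medians without a test. Named genes were the 8 members, Cldn18, called genes of each pathway list (values for at most 4, by the size of the difference), markers given beside a member and the 3 genes most like each member with a mean of at least 100. Ptgs1, Ptges2, Ptgir, Tbxa2r, Cbr1, Ptgr1 and Gm26924 were added after their values were seen, as were values for Ptger3 and Ptgfr per kilobase. Some results under these rules are not reported here. Alternatives changed the pseudocount, filter, scaling, trend, weights, tool (edgeR 4.0.16 and DESeq2 1.42.0 on the recovered reads) and libraries.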

Additional observations from a re-analysis of the deposited data

How the results depend on the processing

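Each value was recomputed under 20 alternatives. Ptges (1.07 to 1.57 on the log2 scale), Hpgd (-1.52 to -1.18) and Ptger4 (1.94 to 2.28) kept their direction and their call under all of them. Pla2g4a lost its call (limma unless named, adjusted p in brackets) with upper quartile scaling at 0.45 (0.107), quantile normalization at 0.46 (0.113), no mean trend at 0.59 (0.0920), the authors' deposited table at 0.58 (0.0596) and without wild-type libraries 2 and 3 at 0.33 (0.220), and ranged from 0.40 to 0.72 with 1 library left out. Slco2a1 lost its call with no mean trend at -0.82 (0.119), edgeR at -0.72 (0.0669) and the authors' deposited table at -0.75 (0.160), and ranged from -1.16 to -0.52 with 1 library left out. Ptger1 gained a call with upper quartile scaling at -0.55 (0.0226), quantile normalization at -0.54 (0.0251), array weights at -0.39 (0.0368), DESeq2 at -0.46 (0.0397) and without wild-type libraries 2 and 3 at -0.73 (0.00844), and ranged from -0.55 to -0.25 with 1 left out. Ptgs2, not called under any alternative, turned to -0.0025 with upper quartile scaling, was farthest from its reported 0.13 with quantile normalization at 0.66 (0.170) and ranged from -0.029 to 0.30 with 1 left out, and Ptger2 turned to 0.20 with quantile normalization. The cause was not tested for any of these.

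Of all genes, 2918 to 4645 were called higher and 2025 to 4494 lower, the lowest being 2025 lower genes in the authors' deposited table against 3733. The median difference of all genes was -0.15 with upper quartile scaling, 0.10 with quantile normalization and -0.12 with no filter, beside -0.02. With the replicate number as a replicate block, no member changed its call and Pla2g4a stayed at 0.59. Same-numbered libraries did not deviate together (correlations -0.0034, 0.0213 and -0.17). With 3 libraries a genotype, this cannot settle whether the numbers pair them.

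Depth limits Ptgs2 and Ptger2, whose intervals include changes of over 1.5-fold. Whether the libraries of a genotype are separate animals is unknown, and cell type markers differed widely between the genotypes. The Ptger1 level is uncertain where counting did not use strand.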

Other observations

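Neighbouring lipid and signalling genes were read in the same way. Of 11 lipoxygenase and leukotriene genes tested, 2 rose, 1 fell and 8 were not called, with a median log2 difference of 0.18. Lta4h, which makes leukotriene B4, rose by 0.67 ± 0.14 (limma adjusted p = 0.00316) and Alox12, the platelet-type lipoxygenase, fell by 1.62 ± 0.39 (adjusted p = 0.00640), from 107 ± 31.8 to 34.1 ± 10.7 normalized counts (SD, n = 3). Alox15 was called higher at 8.63 ± 6.11 against 37.7 ± 3.79 normalized counts, a call lost without wild-type libraries 2 and 3 (adjusted p = 0.0830) and without knockout replicate 1 (0.0616) or 3 (0.0509).

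Among 14 genes of the cAMP and CREB response, the signalling branch that EP2 and EP4 are known to use, 2 rose, 6 fell and 6 were not called, with a median log2 difference of -0.64. Nr4a2 fell from 1613 ± 413 to 553 ± 133 normalized counts (SD, n = 3; limma adjusted p = 0.000272) and Sik1 from 2143 ± 496 to 765 ± 41.4 (8.15e-05). Nr4a3 was at 359, 1933 and 724 in the wild-type libraries against 293, 220 and 190.3 in those of the knockout (log2 -1.78 ± 0.48, limma adjusted p = 0.0111), and Fosb at 39.2, 412 and 137 against 41.6, 33.2 and 13.5 (-2.25 ± 0.74, adjusted p = 0.0292). Both were highest in wild-type replicate 2, and neither call held without wild-type libraries 2 and 3 (adjusted p = 0.126 and 0.576). The Fosb call was also lost without wild-type replicate 2 (0.0827) or 3 (0.0935) or knockout replicate 2 (0.0562) or 3 (0.108). Per1 and Crtc2 were called lower as well, and Fos and Creb1 higher. The Crtc2 call was lost without wild-type replicate 2 (0.0762) or 3 (0.0613) or knockout replicate 1 (0.0536) or 2 (0.111).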
